A study of Mus musculus with 5 samples.

Results

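Cells sorted from the bone marrow of mice with a mutant Ikaros zinc finger 4 (dF4) were compared with the same sort from wild-type mice (wt), using 1 dF4 library and 2 wt libraries. Every transcript with a gene symbol and a mean of at least 5 RPKM (a read density, divided by transcript length and by the size of the library) over these 3 libraries was considered, which took in 8847 of 26531 transcripts and 8395 of 22098 symbols. The mean includes dF4, so 526 of the 8847 had a wt mean below 5 RPKM and were considered only because they were high in dF4. The series holds 5 libraries, the other 2 being from a zinc finger 1 mutant (dF1), and its design sets the finger mutants beside wild type. All mice were C57BL/6 and 6 to 7 weeks old. The labels write the dF4 genotype as Ikaros_ZnF4-/- and the wt genotype as wt. The sort was Hardy fraction A without lineage depletion, labelled as proB cells. The design text calls the dF4 sample a single one with low coverage, and whether each wt library had its own mouse is not stated. With 1 dF4 library no difference has a replicate check and none was tested. Each is given by its size, and any difference between dF4 and wt is a difference between these libraries.

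Normal lymphoid development needs Ikaros, the product of Ikzf1 and a DNA-binding protein with zinc fingers. Its N-terminal fingers bind DNA containing the core GGGAA, its C-terminal fingers pair it with family members, and it acts in part through the NuRD chromatin remodelling complex. Hardy fraction A is the earliest fraction of the B lineage in marrow by surface phenotype. Unless other lineages are removed it also takes in plasmacytoid dendritic cells (pDCs), the producers of type I interferon, and natural killer (NK) cells. Neutrophils, erythroid cells and mature B cells are the abundant neighbours of these cells in marrow. In bulk RNA, fewer cells of a type and less RNA per cell cannot be told apart, and this holds for every gene group described here.

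The dF4 library was shallow, at about 596000 reads by an estimate from its low values, and the depth of the wt libraries is unknown. Intervals given for dF4 are exact 95% Poisson intervals on the estimated reads and cover counting error only. Sex also separated the groups. The female-specific Xist RNA stood at 77.7 and 83 RPKM in wt and was listed at 0 in dF4. The Y-linked Eif2s3y, Ddx3y, Kdm5d and Uty were listed at 0 in both wt libraries and were at 41.4, 16.1, 7.6 and 1.6 RPKM in dF4. Sex and genotype therefore cannot be told apart in dF4 against wt. Of the dF1 libraries, replicate 1 had Xist at 93.2 RPKM and Eif2s3y at 0, and replicate 2 had Xist at 0 and Eif2s3y at 37.5. Transcripts of pro-B cells were present in all 3 libraries, among them Igll1 of the surrogate light chain at 88.3 and 40.3 RPKM in wt and at 167.2 in dF4. In wt they lay far below the pDC marker Siglech, at 936.2 and 838.4 RPKM, and in dF4 far below the neutrophil transcript S100a9, at 14100 RPKM. In neither group were pro-B transcripts the most abundant of these.

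The promoters of 4 genes at the extremes of the comparison are printed here, because the fingers of Ikaros bind the core GGGAA. They are the pDC lectin Siglech and the integrin Itgax, both lower in dF4, and the neutrophil genes Ctsg and S100a9, both higher. Each is the 250 bases before the gene's start in RefSeq on GRCm38.p6, read 5′ to 3′ along the gene, with GGGAA or its reverse complement TTCCC in capitals. The windows are chr7:55767934-55768183 on the plus strand for Siglech, chr7:128129300-128129549 on the plus strand for Itgax, chr14:56102575-56102824 on the minus strand for Ctsg and chr3:90695722-90695971 on the minus strand for S100a9.
Siglech: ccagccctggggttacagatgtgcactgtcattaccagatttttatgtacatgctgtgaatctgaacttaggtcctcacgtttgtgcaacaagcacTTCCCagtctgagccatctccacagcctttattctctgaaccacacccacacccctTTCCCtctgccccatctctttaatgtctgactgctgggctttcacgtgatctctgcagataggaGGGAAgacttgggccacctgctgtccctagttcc
Itgax: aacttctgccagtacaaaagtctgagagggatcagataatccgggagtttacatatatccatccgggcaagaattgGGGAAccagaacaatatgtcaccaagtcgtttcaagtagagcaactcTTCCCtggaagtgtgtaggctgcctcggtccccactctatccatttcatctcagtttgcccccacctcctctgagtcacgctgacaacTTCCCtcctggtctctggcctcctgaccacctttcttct
Ctsg: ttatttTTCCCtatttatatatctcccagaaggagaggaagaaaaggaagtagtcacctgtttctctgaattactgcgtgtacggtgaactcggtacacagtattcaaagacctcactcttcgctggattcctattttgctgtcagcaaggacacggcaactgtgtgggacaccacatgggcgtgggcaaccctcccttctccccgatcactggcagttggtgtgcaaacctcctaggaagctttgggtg
S100a9: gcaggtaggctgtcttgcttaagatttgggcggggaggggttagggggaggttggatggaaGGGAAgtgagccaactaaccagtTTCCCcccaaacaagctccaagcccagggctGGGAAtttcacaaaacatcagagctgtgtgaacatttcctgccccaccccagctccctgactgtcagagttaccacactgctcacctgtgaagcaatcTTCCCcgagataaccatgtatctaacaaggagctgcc
The windows held 3, 3, 1 and 4 matches in that order, so the core stood in promoters of both directions. Across the genome's 32851 RefSeq windows, 56.2% held at least 1 match. The share was 59.8% of 699 windows of the symbols higher in dF4, 54.4% of 673 windows of those lower and 58.5% of 6505 windows of those within the size. Windows were found for 541 of 774 higher and 520 of 749 lower symbols. In the pDC list 16 of 24 windows held a match, in the mature B cell list 10 of 15, in the mature neutrophil list 12 of 21, in the primary granule list 7 of 14 and in the erythroid list 5 of 12. A match is a run of letters and not a shown binding site.

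A transcript was counted as higher or lower when dF4 lay at least 1 above or below each wt library on log2(RPKM + 1), which for abundant transcripts is about a 2-fold difference and understates the difference of low ones. By this size 787 transcripts (8.9% of those considered) were higher in dF4 and 784 (8.86%) were lower. Scaling the libraries to the same summed RPKM turned this into 604 higher and 1076 lower, and moved the median difference of all transcripts considered from 0.03 to -0.18. By the same size, a single dF1 library stood 20 (replicate 2) or 27 (replicate 1) transcripts above the wt pair (0.233% and 0.316%). In the same order 33 or 37 stood below (0.385% and 0.433%), each library being filtered on its own mean with the wt pair. For wt replicate 2, 31 stood above and 142 below wt replicate 1 (0.362% and 1.66%). This last comparison had 1 library to exceed and a filter on the wt mean alone. Counting error was estimated for dF4 alone, so these counts are not like for like with those of dF4. Of the differences, 339 higher and 267 lower transcripts exceeded 2 on the log2 scale, and 86 and 38 exceeded 4. The higher transcripts held 3.67% and 3.78% of the summed RPKM in wt and 24% in dF4, while the lower ones held 15.4% and 17.2% in wt and 3.42% in dF4. Among the lower transcripts 76 were listed at 0 in dF4 and 445 rested on fewer than 10 estimated dF4 reads, against 53 of the higher ones. Taking the nearer bound of the Poisson interval in place of the dF4 value left 458 higher and 269 lower. Without wt replicate 1, the count of higher transcripts was 1244.

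**Figure D1:**
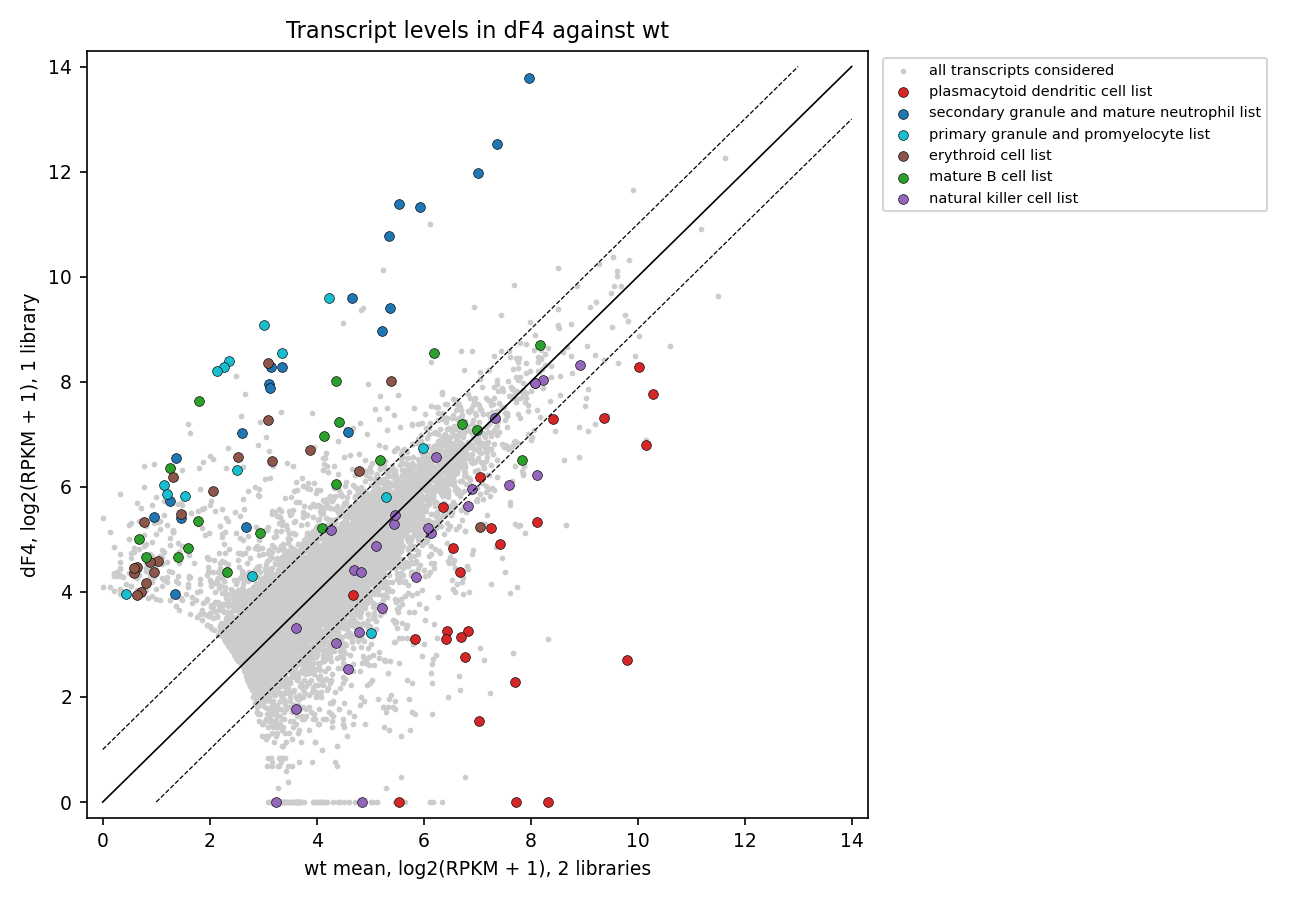
Each point is a transcript, with its mean over the 2 wt libraries on the horizontal axis and its dF4 value on the vertical axis, both as log2(RPKM + 1). Grey points are the 8847 transcripts considered, coloured points are members of 6 cell type lists, the solid line marks equal levels and the dashed lines a difference of 1. Most points of the neutrophil lists lie above the upper dashed line and most of the pDC list below the lower. Cstb of the primary granule list lies on the lower side.

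At the edge of the size, Atxn3, Rab28 and Prdx5 were just counted as higher and Cdkn2aipnl, Cd82 and Srrd were not. Atxn3 stood at 8.6 and 8.5 RPKM in wt and at 18.2 in dF4, and Cdkn2aipnl at 30.1 and 22.2 in wt and at 61.1 in dF4. Downward, Alkbh6, Glce and Rnf181 were just counted, and Ly6a, Foxred1 and Dag1 were not.

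The transcripts farthest above both wt libraries came from several cell types. Granulocyte genes led, with the neutrophil serine proteases Ctsg, Prtn3 and Elane, the lectin Fcnb, the iron-binding Lcn2, the peroxidase Mpo, the secreted glycoproteins Orm1 and Lrg1, and the basophil proteases Mcpt8 and Prss34. Ctsg was at 3.4 and 4.2 RPKM in wt and at 309.8 in dF4 (267 to 358), 81.5-fold above the wt mean. Lrg1 was at 0.3 and 1.1 RPKM in wt and at 83 in dF4 (64.2 to 105). Beside these stood Faim3, the IgM Fc receptor of B cells, at 2.8 and 2.2 RPKM in wt and at 198 in dF4 (170 to 229). The chemokine Cxcl12, which holds progenitors in marrow, was at 0.7 RPKM in both wt libraries and 62.6 in dF4 (52 to 75.1). Tgfbi, a matrix protein of macrophages, was at 1.9 and 2.3 RPKM in wt and at 129.5 in dF4. Except Lcn2 and Mpo, all of these were below 10 RPKM in both wt libraries.

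The 15 genes farthest below both wt libraries included 6 members of the pDC list. Several were listed at 0 in dF4: the muscle-type cytochrome oxidase subunit Cox6a2 (246 and 392.1 RPKM in wt), the surface receptor Cd300c (196.6 and 226.2), Havcr1, which encodes TIM-1 (69 and 73.1), Adam11 (48.8 and 88.9), the serine protease Prss30 (41.5 and 45.1), the kallikrein Klk1 (60.5 and 30.8) and the cytokine receptor Il17rb (30.1 and 34.5). A count of 0 at this depth allows up to 9.34 RPKM for Cox6a2, 8.91 for Cd300c and 1.21 for Adam11 at the upper 95% Poisson bound, all below either wt library. Siglech rested on 8 estimated reads and was 161-fold below the wt mean (counting interval 80.7 to 368). The lysosomal protease Ctsl, at 314.6 and 323.5 RPKM in wt and at 7.6 in dF4, was 42-fold lower (22 to 91.5). The cell adhesion molecule Cdh1, at 52.7 and 40.5 RPKM in wt, and Itgax, which encodes CD11c, at 98.5 and 118.5, were each at 0.4 RPKM in dF4 on a single estimated read. The upper bound was 2.3 RPKM for Itgax and 2.11 for Cdh1.

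Gene lists were then read one by one, with 1 transcript per symbol and every member found in the table. Without a filter, 8.03% of the 22098 symbols were higher by the size and 5.92% lower, and the median difference was 0. Among the 8395 symbols considered, 763 were higher and 729 lower. A symbol below 1 RPKM in either wt library cannot be lower by the size. Of 561 distinct list symbols 437 were considered, and the lists were chosen with earlier results of these data known. The counts below are set beside these shares and are no test.

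The pDC list had 27 members, of which 21 were below both wt libraries by the size, none was higher and 6 did not reach the size (median -2.73). The list summed to 7258 and 8413 RPKM in wt and to 1298 in dF4. Ccr9, a chemokine receptor for gut homing, was at 132.5 and 128.4 RPKM in wt and at 1.9 in dF4 (0.619 to 4.45). Runx2, a transcription factor of pDC exit from marrow, was at 166.9 and 250.2 RPKM in wt and at 3.9 in dF4 (2.18 to 6.41), 53.5-fold below the wt mean (32.5 to 95.9). Tcf4, which encodes the pDC lineage factor E2-2, was at 143.3 and 199.6 RPKM in wt and at 29.1 in dF4. No other member of the list with a stated regulator role was as far down as Runx2. Irf8 was at 1190 and 1317 RPKM in wt and at 215.8 in dF4. Irf7, the interferon regulator, was at 133.3 and 170.4 RPKM in wt and at 36.1 in dF4. Spib, an Ets factor of pDCs and B cells, stood at 295.3 and 382.7 RPKM in wt and at 155.7 in dF4. Spib thus missed the size, as did Blnk, a B cell adaptor that pDCs also express, Tlr9, Nrp1 and the low Cadm1 and Ptcra. The nucleic acid sensors differed from each other, with Tlr7 at 61.7 and 50.9 RPKM in wt and at 7.6 in dF4 against Tlr9 at 76.3 and 85.2 in wt and at 47.8 in dF4. Among members known mainly from pDCs, Pacsin1 was at 77.8 and 93.4 RPKM in wt and at 8.5 in dF4, and the receptor phosphatase Ptprs at 96.3 and 129.6 in wt and at 8.5 in dF4. Upb1 lay at 102.9 and 113 RPKM in wt and at 5.8 in dF4. In all of these the dF4 value lay below both wt libraries. Ly6d was at 913.1 and 1179 RPKM in wt and at 311.8 in dF4, the highest dF4 level in the list, and Pld4 at 588.4 and 740.5 in wt and at 158.1 in dF4.

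**Figure D2:**
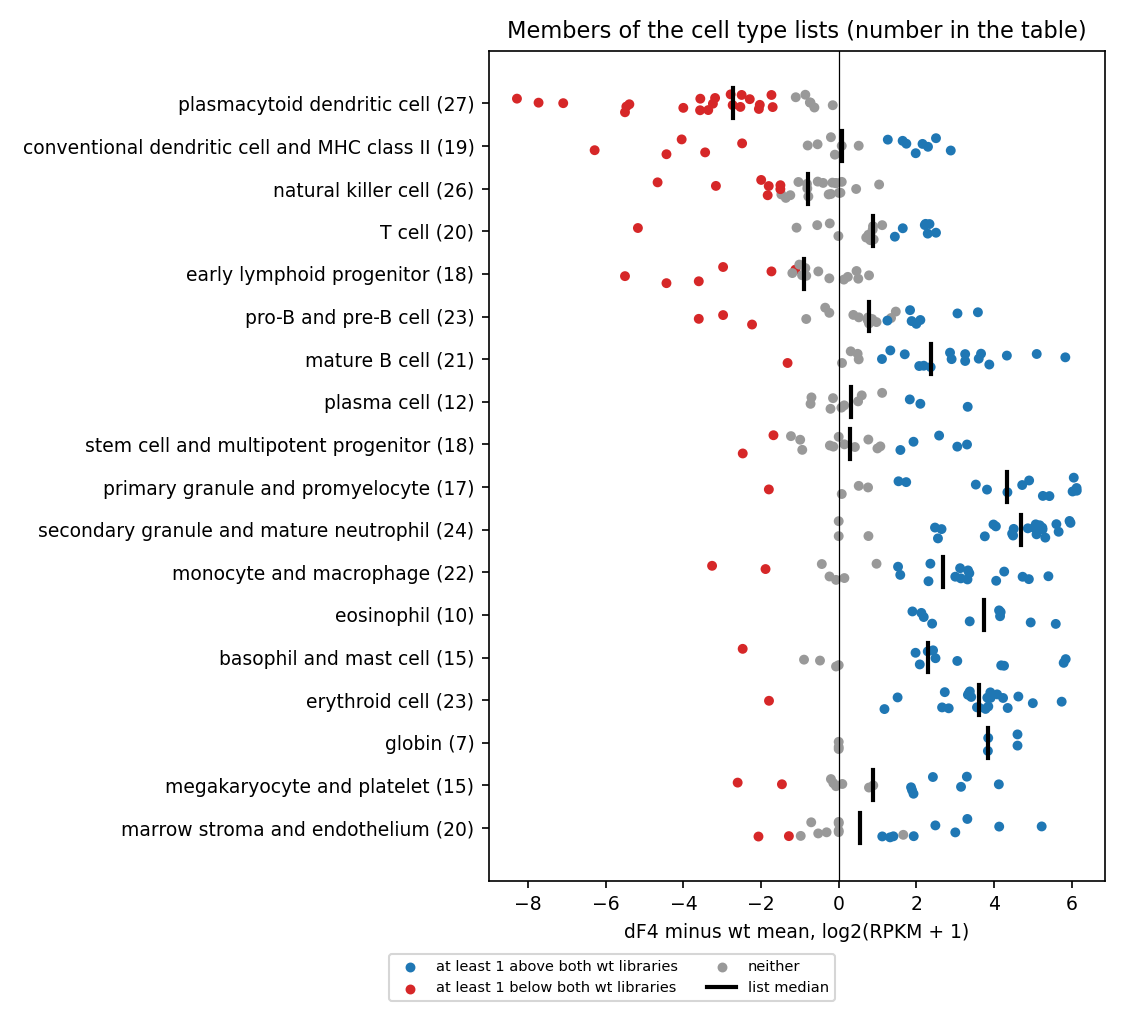
Each point is 1 member of a cell type list, placed by dF4 minus the wt mean on log2(RPKM + 1), with the number of members in brackets and the list median as a bar. Red points lie at least 1 below both wt libraries, blue points at least 1 above both and grey points neither. Of the pDC members 21 of 27 are red, and of the erythroid members 22 of 23 are blue.

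Conventional dendritic cell and MHC class II genes did not move as 1 list, with 8 of 19 higher, 5 lower and 6 neither. Itgax was lowest, followed by Flt3, a growth factor receptor of dendritic cells and their precursors (135.1 and 144.1 RPKM in wt, 5.5 in dF4), and the lectin Clec10a (106.5 and 109.1 in wt, 5.6 in dF4). The lectins Clec9a and Cd209a were lower too. The higher members included Naaa, a lipid hydrolase (5.7 and 4.2 RPKM in wt, 42.6 in dF4), and the low Batf3 and Itgae. Batf3 rested on 2 estimated dF4 reads, and its interval of 0.568 to 16.9 RPKM took in the 0.6 of wt replicate 1. Itgae rested on 5 reads (0.704 to 5.06 RPKM), against 0.3 and 0.2 in wt. Sirpa, Cst3, Zbtb46 and Xcr1 did not reach the size. Several MHC class II genes were higher, with H2-Ab1 at 212.7 and 198.5 RPKM in wt and at 920.6 in dF4 and the invariant chain Cd74 at 1080 and 850.7 in wt and at 3208 in dF4. Ciita, the activator of class II transcription, was at 8.6 and 12.3 RPKM in wt and at 54.6 in dF4. The class II loading genes H2-DMa and H2-DMb1 did not reach the size. H2-DMa was at 177.8 and 244.7 RPKM in wt and at 194.7 in dF4.

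Early lymphoid progenitor genes were lower for 6 of 18 members and higher for none (median -0.90). They summed to 2748 and 2603 RPKM in wt and to 1012 in dF4. Ccr9, Flt3 and Ly6d, which pDCs also express, were among those lower. Of the others, Dntt, the terminal transferase of antigen receptor joining, was at 238.9 and 152.5 RPKM in wt and at 14.8 in dF4. Notch1 was at 54.3 and 62.8 RPKM in wt and at 26.4 in dF4, just past the size. The recombinase genes did not follow Dntt. Rag1 was at 29.7 and 13.1 RPKM in wt and at 16.6 in dF4, between the wt libraries, and Rag2 at 7.3 and 3 in wt and at 8.9 in dF4. The interleukin 7 receptor Il7r, at 99.3 and 85.9 RPKM in wt and at 51.3 in dF4, did not reach the size.

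NK cell genes were lower for 7 of 26 members and higher for none (median -0.79), but the wt libraries themselves lay apart, so that leaving out wt replicate 1 gave a median of -0.15 and leaving out wt replicate 2 one of -1.38. The list summed to 3412 RPKM in wt replicate 1, 1661 in wt replicate 2 and 1650 in dF4. The dF4 sum was thus close to that of wt replicate 2. The NK receptor Ncr1 was at 168.7 and 69.8 RPKM in wt and at 61.6 in dF4, and Klrb1c, which encodes NK1.1, at 104 and 34.6 in wt and at 33.7 in dF4. Eomes, an NK transcription factor, lay at 58.9 and 26.7 RPKM in wt and at 38 in dF4, between the wt libraries. The members that were lower included the granzyme Gzma (356.2 and 195.5 RPKM in wt, 73.6 in dF4), the pore-forming Prf1 (75.1 and 39 in wt, 18.5 in dF4), the integrin Itga2 and the chemokine Ccl3. Klri2 and Klra8, which have close copies, were listed at 0.

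**Figure D3:**
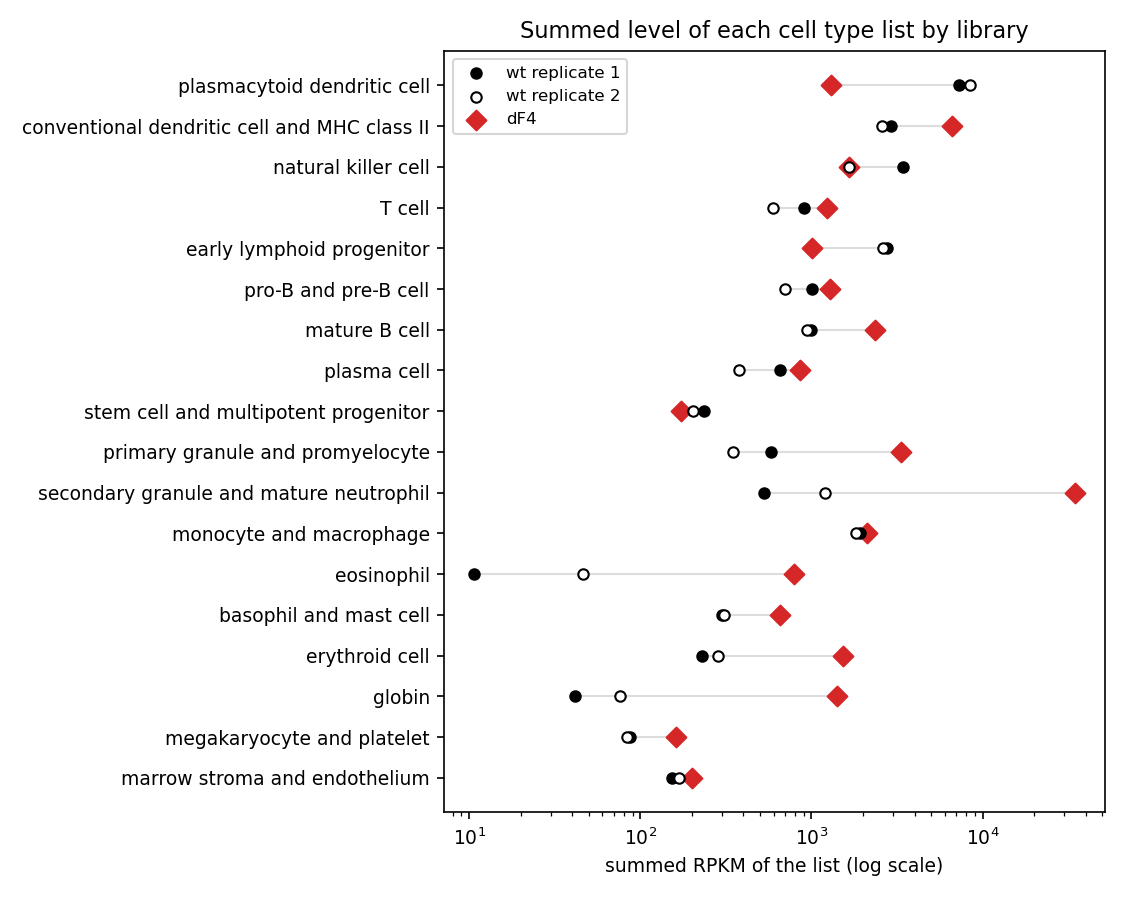
The horizontal axis gives the summed RPKM of all members of each cell type list on a log scale, with filled circles for wt replicate 1, open circles for wt replicate 2 and red diamonds for dF4. The pDC sum is lower in dF4 than in both wt libraries, the mature neutrophil sum is 34562 RPKM in dF4 against 527.1 and 1195, and for NK cells the dF4 diamond lies under the circle of wt replicate 2.

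T cell genes were higher for 7 of 20 members. The T cell receptor complex genes Cd3e (13.9 and 12.6 RPKM in wt, 66.1 in dF4) and Cd3d (25 and 15.2 in wt, 115.5 in dF4), the signalling adaptor Lat and the receptor Cd5 were among them. Cd4, which pDCs express too, was the single member lower, at 146.3 and 154.1 RPKM in wt and at 3.2 in dF4 (1.19 to 7.05). Cd8a did not reach the size, at 25.6 and 27.8 RPKM in wt and at 22.6 in dF4.

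Mature B cell genes were higher for 16 of 21 members, with 1 lower and 4 neither (median 2.37), and 9 of the 21 would not have been considered on their wt level alone. Ms4a1, which encodes CD20, was at 1.6 and 1.2 RPKM in wt and at 80.9 in dF4. The IgE receptor Fcer2a was at 0.5 and 0.7 RPKM in wt and at 31.1 in dF4. Both genes mark B cells, and both were considered only because they were high in dF4. Cd79b of the B cell receptor stood at 85.1 and 59.6 RPKM in wt and at 371.7 in dF4, and the follicle homing receptor Cxcr5 at 3.3 and 1.6 in wt and at 39.7 in dF4. Ly86, a partner of Cd180 that dendritic cells also express, was the member that was lower (241.2 and 212.9 RPKM in wt, 90.4 in dF4). Fcrla, at 130.9 and 123.8 RPKM in wt and at 135.1 in dF4, did not reach the size.

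Pro-B and pre-B genes were split, with 7 of 23 higher, 3 lower and 13 neither. Those higher included transcription regulators that B cells keep later, Pax5 (7.8 and 5.4 RPKM in wt, 61.5 in dF4), Pou2af1 (19.3 and 8.9 in wt, 169 in dF4) and Bach2 (9.2 and 8.9 in wt, 34.9 in dF4). Ebf1, the early B cell factor, was at 13 and 7.4 RPKM in wt and at 26.6 in dF4, just short of the size. The surrogate light chain gene Vpreb1 was at 28.8 and 10.3 RPKM in wt and at 30.5 in dF4. Dntt, Arpp21 and Vpreb2 were counted as lower, but Vpreb2 was listed at 0 in dF4 with an upper bound of 14.35 RPKM, above its wt values of 6.6 and 1.9, so its difference was not detectable at this depth. Arpp21 was at 7.6 and 6.2 RPKM in wt and listed at 0 in dF4. Plasma cell genes were higher for 3 of 12 members, Irf4, Igj and Slamf7, and lower for none. Igj, the joining chain, was itself at 132.1 RPKM in wt replicate 1 and 7.3 in wt replicate 2, against 331.2 in dF4.

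Neutrophil genes showed the highest values in the dF4 library. Of 24 genes of secondary granules and mature neutrophils, 21 were higher and 3 did not reach the size (median 4.69), and these 3, of the Stfa family of close copies, were at 0 in wt and at most 0.7 RPKM in dF4. The list held 0.172% and 0.418% of the summed RPKM in wt and 10.01% in dF4. S100a9, a calcium-binding protein, was at 148.5 and 350.6 RPKM in wt and at 14100 in dF4 (13672 to 14536). Its partner S100a8 was at 90.7 and 236.6 RPKM in wt and at 5891 in dF4. Both, and most of the list, were higher in wt replicate 2 than in wt replicate 1 (median 0.92). The secondary granule genes Ltf (17.9 and 61.8 RPKM in wt, 1744 in dF4), Ngp (54.3 and 202.7 in wt, 4017 in dF4) and Camp (29.1 and 90.4 in wt, 2551 in dF4) had the same order of libraries. The chemokine receptor Cxcr2 of mature neutrophils was at 0.9 and 1.9 RPKM in wt and at 52.3 in dF4. Of 17 genes of primary granules and promyelocytes, the earlier stage, 13 were higher, 1 lower and 3 neither (median 4.34). On their wt level alone, 9 of these 17 and 8 of the 24 mature neutrophil genes would not have been considered. Elane was at 4.7 and 9.4 RPKM in wt and at 537.8 in dF4, and Mpo at 12.8 and 22.5 in wt and at 772.9 in dF4. Ms4a3, of granulocyte and monocyte precursors, was at 0.9 and 1.5 RPKM in wt and at 64.2 in dF4. Transcripts of both early and late granules were thus higher. Cstb, a protease inhibitor found in many cells, was lower, at 31.9 and 30.8 RPKM in wt and at 8.3 in dF4.

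Eosinophil genes were higher for 10 of 10 members, but 9 of the 10 would not have been considered on their wt level alone. The list summed to 10.7 and 46.2 RPKM in wt and to 788.1 in dF4. The granule protein Prg2 made up most of each sum, at 8.2 and 34.6 RPKM in wt and at 555.8 in dF4. The peroxidase Epx was at 0.5 and 2.1 RPKM in wt and at 37.8 in dF4. Among basophil and mast cell genes 10 of 15 were higher and 1 lower, although over the few members at 5 RPKM or more in wt the median was -1.68. Mcpt8 was at 0.6 and 3.4 RPKM in wt and at 146 in dF4 (114 to 182), and Prss34 at 1.7 and 7.5 in wt and at 274.2 in dF4. The high affinity IgE receptor genes Fcer1a and Ms4a2 were each at 4.9 RPKM in dF4 and at most 0.2 in wt. Csf2rb2, a cytokine receptor subunit that other cells share, was the member that was lower, at 89.4 and 105.7 RPKM in wt and at 16.7 in dF4.

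Monocyte and macrophage genes were mostly higher, for 15 of 22 members, while their sum hardly differed, at 1909 and 1825 RPKM in wt and at 2120 in dF4. The lysozyme Lyz2 was at 33.7 and 40.2 RPKM in wt and at 1124 in dF4, the receptor Csf1r at 4.7 and 3.2 in wt and at 41.7 in dF4, and the complement subunit C1qb at 0.9 in both wt libraries and 49.6 in dF4. Mpeg1, a pore-forming protein that dendritic cells also make, ran the other way, at 1147 and 1131 RPKM in wt and at 118 in dF4. Cd68 was lower as well (171.4 and 215.9 RPKM in wt, 51.4 in dF4). Restricted to members at 5 RPKM or more in wt, the median of this list turned to -0.24.

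Erythroid genes were higher for 22 of 23 members (median 3.62), and 16 of the 23 would not have been considered on their wt level alone. Slc4a1, the anion exchanger of the red cell membrane, was at 1.6 and 13.5 RPKM in wt and at 327.2 in dF4. The erythroid factors Gata1 (0.1 and 1 RPKM in wt, 21.3 in dF4) and Klf1 (0.1 and 0.9 in wt, 8.6 in dF4) were higher too. The wt libraries again differed in one direction, replicate 2 being above replicate 1 by a median of 0.86, and dF4 lay above both. The transferrin receptor Tfrc, used by all dividing cells, was lower, at 111.5 and 152.6 RPKM in wt and at 36.9 in dF4. Of 9 enzymes of heme synthesis 8 were higher and Uros did not reach the size. The first, erythroid Alas2, was at 3.6 and 11.4 RPKM in wt and at 153.1 in dF4, and the last, Fech, at 8.1 and 7.9 in wt and at 89.3 in dF4. The adult globins Hbb-b1 (18.6 and 36.5 RPKM in wt, 657.9 in dF4) and Hba-a1 (2 and 1 in wt, 34.3 in dF4) were higher, as were their copies Hbb-b2 and Hba-a2, whose reads may be shared among near-identical genes. The embryonic globins Hbb-bh1, Hba-x and Hbb-y were listed at 0 in all 3 libraries.

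Megakaryocyte genes were higher for 7 of 15 members and lower for 2, and over members at 5 RPKM or more in wt the median was -1.46. Pf4, a platelet chemokine, was at 0.2 RPKM in both wt libraries and 19.9 in dF4, while the integrin Itgb3 was at 27.6 and 28.8 in wt and at 9.6 in dF4. The platelet genes Gp9, Gp5 and Tubb1 were listed at 0 in dF4 and were at most 0.2 RPKM in wt. Of 20 stromal and endothelial genes 9 were higher and 2 lower, and over members at 5 RPKM or more in wt the median was -1.13. Cxcl12 led, with the binding protein Igfbp5 at 0.2 and 0.3 RPKM in wt and at 20.9 in dF4 and the adhesion molecule Vcam1 at 1 and 0.8 in wt and at 14.2 in dF4. The matrix genes Postn, Dcn and Lum were listed at 0 in all 3 libraries, and Col1a1 was at 0 and 5 RPKM in wt and at 0.7 in dF4. The endothelial adhesion genes Cdh5 and Pecam1 were lower, Cdh5 at 47.8 and 40.1 RPKM in wt and at 9.7 in dF4. Most stem cell genes were low in every library, with 5 of 18 higher and 2 lower, and Esam was listed at 0 throughout. Cd34 was at 1.7 and 2.1 RPKM in wt and at 7.7 in dF4, and Hoxa9 at 3.8 and 5.4 in wt and listed at 0 in dF4.

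Ikaros itself, Ikzf1, was at 175.8 and 141.1 RPKM in wt and at 237.7 in dF4, within the size. This value covers the whole transcript and checks neither the deletion nor the label. Ikzf3, which encodes Aiolos, a family member of later B cells, was at 55.9 and 29.1 RPKM in wt and at 164.7 in dF4. Ikzf2, which encodes Helios, was at 5.3 and 5.7 RPKM in wt and at 13.9 in dF4. Both lay above the wt pair, while Ikzf5 (4.6 and 4.2 RPKM in wt, 2.8 in dF4) did not reach the size and Ikzf4 was at most 0.1. Of 13 NuRD genes 12 did not reach the size. The remodelling ATPase Chd4 was at 100.9 and 92 RPKM in wt and at 114.1 in dF4, and the deacetylase Hdac2 at 36.3 and 33.9 in wt and at 38.2 in dF4. Gatad2b, a scaffold subunit, was lower, at 29.3 and 28.9 RPKM in wt and at 13.1 in dF4. The transcripts of Mta3 were unequal, the one with the highest level at 29.6 and 28.4 RPKM in wt and at 16.8 in dF4 and another at 8.8 and 6.8 in wt and listed at 0 in dF4. Over the table, 407 symbols had more than 1 transcript considered. In 54 of them some transcripts reached the size and others did not, and in none did transcripts lie past the size in opposite directions.

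**Figure D4:**
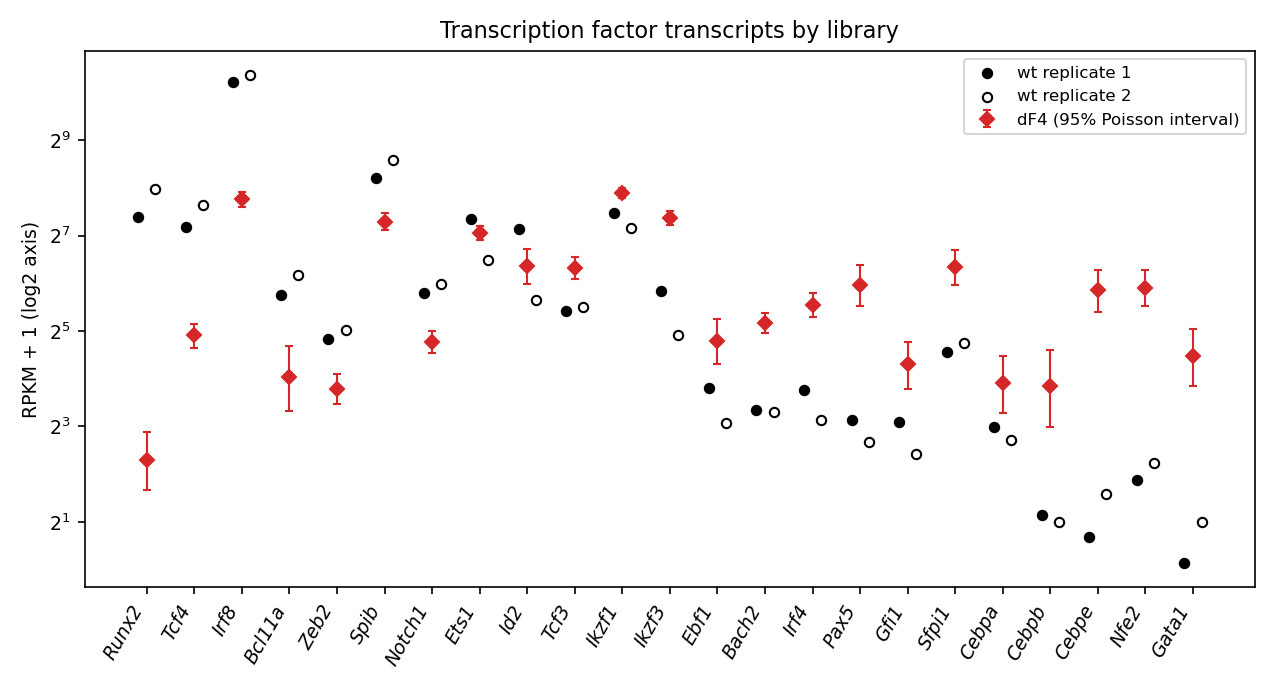
RPKM + 1 on a log2 axis for 23 transcription factor genes, with filled circles for wt replicate 1, open circles for wt replicate 2 and red diamonds for dF4, whose bars are 95% Poisson intervals of the reads. From Runx2 to Notch1 on the left dF4 lies below both wt libraries, and from Gfi1 to Gata1 on the right it lies above both.

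Transcription factor genes were found in both directions. Of 23 lymphoid and dendritic cell factors, 5 were lower (Runx2, Tcf4, Irf8, Bcl11a and Zeb2), 4 were higher (Pax5, Bach2, Irf4 and Id3) and 14 were neither. Bcl11a, needed for pDCs and B cells, was at 52.7 and 71 RPKM in wt and at 15.5 in dF4. The E protein Tcf3, at 41.6 and 44.7 RPKM in wt and at 79.2 in dF4, stood opposite to its relative Tcf4, though within the size. Id2, the inhibitor of E proteins in NK cells, was at 139.4 and 49.5 RPKM in wt and at 81.6 in dF4. Of 13 myeloid factors 7 were higher and none lower, but 8 of the 13 would not have been considered on their wt level alone. Over members at 5 RPKM or more in wt the median was 1.05. Cebpe, of the granulocyte granule programme, was at 0.6 and 2 RPKM in wt and at 56.9 in dF4 (40.9 to 76.8). Sfpi1, which encodes PU.1, was at 22.5 and 25.8 RPKM in wt and at 80.2 in dF4. Cebpa was at 6.9 and 5.6 RPKM in wt and at 14 in dF4, and did not reach the size.

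Receptor and protease families also held members in both directions. Of 15 chemokine receptors 8 were higher and 2 lower, Ccr9 among them, and over members at 5 RPKM or more in wt the median was -0.06. Ccr1 of granulocytes and monocytes was at 0.7 RPKM in both wt libraries and 28.4 in dF4, and Ccr6 of B cells at 0.8 and 0.7 in wt and at 29.1 in dF4. Cxcr4, the receptor for Cxcl12, was at 174.7 and 138.5 RPKM in wt and at 168.1 in dF4. Among Toll-like receptor genes and their partners 6 of 19 were higher and 3 lower, but of the 11 considered 0 were higher and 3 lower. Tlr12 was lower with Tlr7, at 35.2 and 48.5 RPKM in wt and at 2.5 in dF4, while Tlr1, at 0.4 in both wt libraries, was at 11.8 in dF4. The shared adaptor Myd88 was at 45.6 and 44.8 RPKM in wt and at 40.3 in dF4. Of 14 cathepsins 2 were higher and 4 lower. Ctsl was lowest, Ctsb stood at 556.3 and 511.6 RPKM in wt and at 132.4 in dF4, and Ctse was higher at 12 and 20.5 in wt and at 92.8 in dF4. Cathepsin D, Ctsd, was at 341.7 and 246 RPKM in wt and at 302.5 in dF4, between the wt libraries. Among 18 integrins 6 were higher, with Itgam, which encodes CD11b, at 26.8 and 19.4 RPKM in wt and at 131.8 in dF4, and 3 were lower, with Itgax the lowest. Of the 12 integrins considered, 2 were higher and 3 lower.

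Of 31 cytokine receptors 7 were higher and 5 lower, and of the 28 considered 5 were higher and 5 lower. Il9r, the interleukin 9 receptor, was at 0.1 RPKM in both wt libraries and 34.1 in dF4, and the erythropoietin receptor Epor was at 0.2 and 0.8 in wt and at 21 in dF4. Lower with Flt3 were Il3ra, at 10.6 and 18.8 RPKM in wt and at 1.2 in dF4, Csf2rb2 and both chains of the type I interferon receptor. Ifnar1 was at 59.7 and 60.2 RPKM in wt and at 21.9 in dF4, and Ifnar2 at 124.4 and 139.5 in wt and at 57 in dF4. The interferon gamma receptor Ifngr1 lay between the wt libraries, at 110.4 and 58.7 RPKM in wt and at 108.3 in dF4. Interferon response genes were lower for 11 of 26 members and higher for 6 (median -0.91). Of the 22 considered 10 were lower and 3 higher, and over members at 5 RPKM or more in wt the median was -1.36. Bst2, which also marks pDCs, was at 1048 and 1242 RPKM in wt and at 110.3 in dF4. Usp18 was at 27 and 35.1 RPKM in wt and at 3.8 in dF4, Mx1 at 22.4 and 32.4 in wt and at 3 in dF4, and Ifi44 at 12.8 and 16.6 in wt and at 1.2 in dF4. Oas3 ran the other way, at 3 and 4 RPKM in wt and at 25.8 in dF4, as did Isg20 (9.2 and 12.8 in wt, 59.9 in dF4). The response genes thus did not share a direction. Oas1a, counted as lower, was listed at 0 in dF4 with an upper bound of 3.26 RPKM, above its wt values of 2.1 and 2.3.

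Genes of cell division lay on the higher side. Of 23 mitosis genes 7 were higher and none lower (median 0.89), with Mki67 at 65.2 and 51.1 RPKM in wt and at 146 in dF4 and Ube2c at 22.6 and 15.2 in wt and at 62.3 in dF4. Of 26 replication genes 5 were higher and none lower (median 0.46). The licensing factor Cdt1 was at 13.1 and 12.1 RPKM in wt and at 44 in dF4, whereas the helicase subunits Mcm6 (96.4 and 78.4 in wt, 95.9 in dF4) and Mcm4 (38 and 32.1 in wt, 40.5 in dF4) did not reach the size. Among 17 immediate early genes, which respond to handling and stimulation, 5 were higher and none lower, with Junb at 14.7 and 8.2 RPKM in wt and at 60.1 in dF4. Fos lay between the wt libraries, at 59.5 and 19.9 RPKM in wt and at 55.3 in dF4. Of 16 Notch pathway genes 2 were higher and 3 lower, with Notch3 at 6.3 and 6.1 RPKM in wt and at 0.8 in dF4 and the target Hes1 at 1.8 and 1.1 in wt and at 5.8 in dF4. Of the 5 Notch pathway genes considered, 0 were higher and 1 lower. The ligand Dll1, counted as lower, was listed at 0 in dF4 with an upper bound of 1.8 RPKM, between its wt values of 2.2 and 1.3. In the secretory pathway list 22 of 23 genes were within the size (median -0.29). By direction alone 14 lay below both wt libraries, 5 above both and 4 between. The chaperone Hspa5 was at 357.8 and 263.1 RPKM in wt and at 263.3 in dF4, and Pdia3 at 236.9 and 182.5 in wt and at 202.3 in dF4. How far the neutrophil, erythroid and B cell transcripts, the lower depth and the sex of the dF4 library bear on any of these other differences was not tested.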

How the data were processed

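The deposited values are RPKM per RefSeq transcript, per the file headers, written by the authors to 1 decimal. Libraries were made with Illumina TruSeq, per the labels' protocols, and TopHat, bedtools and mm9 appear in the submitters' processing notes. Versions, settings, strand and the treatment of multiply mapped reads were not given in the sources used here, so overlapping genes and close copies are uncertain. The table gives no positions, and the supplied annotation is of another build. No per-sample column was left unused, and 1 line naming no gene was left out.

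Differences were computed on log2(RPKM + 1) for transcripts averaging 5 RPKM or more in the 3 libraries, as size alone and without a test, in Python 3.11.15 (pandas 2.3.3, numpy 2.4.6, scipy 1.17.1). The size was at least 1 past each wt library, and the size rule was tested on simulated data. In dF4, 79.1% of 1590 low values, multiplied by length, were whole multiples (to 0.1 read) of 1.68 RPM, from which reads were estimated. The step was not resolved in the wt libraries.

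Members and the 35 gene lists were chosen with earlier results of these data known. Genes named are the Ikaros family, the 15 largest differences in each direction by distance to the nearer wt library (1 per symbol, without clone or small RNA names), up to 6 extreme and 3 even members of each list, and the 3 transcripts on each side of the size. Some further list members are named for their role and were chosen after their values were seen. Alternatives were other pseudocounts (0.1 and 5), filters, scalings, sizes, a Poisson bound, 1 transcript per symbol and leaving out each wt library. A few list members are not reported here.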

Additional observations from a re-analysis of the deposited data

How the results depend on the processing

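No paired analysis was possible because dF4 has 1 library and no replicate number. The 787 higher and 784 lower transcripts became 1944 and 1472 without a filter, 1548 and 1331 at a mean of at least 1 RPKM, 426 and 910 at a wt mean of at least 5 RPKM (which drops transcripts considered only through dF4), 339 and 267 at a size of 2, and 458 and 269 at the nearer Poisson bound. With a pseudocount of 5 they were 561 and 508. Leaving out 1 wt library gave 1015 to 1244 higher and 832 to 877 lower, the 1244 being without wt replicate 1. A transcript then has 1 wt library to exceed in place of 2. The cause of the other changes was not tested. The share of higher among all counted was 50.1% as deposited, 36% with equal summed RPKM, 45.2% with median centring and 44.5% with quantile normalization.

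Over considered members the pDC median of -2.78 became -2.87 and -2.67 with pseudocounts of 0.1 and 5, -3.001 with equal summed RPKM, -2.86 with median centring, -3.22 with quantile normalization, and lay between -2.87 and -2.77 when a wt library was left out. The early lymphoid median of -0.90 became -0.81 with a pseudocount of 5, -1.12, -0.98 and -0.99 with the 3 scalings in that order, and lay between -0.91 and -0.82 when a wt library was left out. The primary granule median of 4.53 became 5.25, 3.22 and 1.15, and the erythroid median of 3.78 became 4.88, 2.26 and 2.83, with pseudocounts of 0.1 and 5 and with a wt mean of at least 5 RPKM. With that last filter the mature B cell median went from 2.62 to 1.51, and 8 list medians turned negative, monocyte to -0.24, basophil and mast cell to -1.68, stroma to -1.13, chemokine receptors to -0.0625, stem cell to -0.73, megakaryocyte to -1.46, Notch to -0.59 and cytokine receptors to -0.03. The NK median stayed negative, between -1.38 and -0.15. Over all 350 list medians under these settings, 23 in 13 lists had another sign, 3 of them under a scaling, all in the NuRD list. Of 140 values for single transcripts 33 left the wt spread, all with a pseudocount of 0.1 or with median centring, and 0 turned sign. Leaving out a wt library cannot take such a value out of the wt spread. Most of these transcripts were picked as the largest differences, so an unchanged sign is no check on them. Depth limits the lower side, where most transcripts rest on fewer than 10 dF4 reads.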

Other observations

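The gene families here were picked after their values had been seen, and are given as values, with counts over all members in the table, where 8.03% of all symbols were higher and 5.92% lower. The D-type cyclins, which drive entry into the cell cycle, were unequal in dF4. Ccnd1 was at 123.4 and 139.3 RPKM in wt and at 6.6 in dF4, while Ccnd2 (42.9 and 25 in wt, 47.6 in dF4) and Ccnd3 (70.1 and 73.4 in wt, 107.1 in dF4) did not reach the size. The Eph receptor genes Epha2, at 92.2 and 112 RPKM in wt and at 3.4 in dF4, and Ephb2, at 13.3 and 16.5 in wt and listed at 0 in dF4, were the 2 of 14 that were lower. Of 33 semaphorin, plexin and neuropilin genes, 7 were lower and 6 higher, but of the 12 considered 7 were lower and 2 higher. Of these 2, Nrp2 was considered only through dF4. Sema4c was at 22.8 and 25.3 RPKM in wt and at 3.7 in dF4, whereas Sema4a was at 67.7 and 40.6 in wt and at 144.8 in dF4 and Nrp2 at 0.3 in both wt libraries and 14.9 in dF4. Fatty acid desaturases also divided, the higher Scd1 being considered only through dF4. Fads2 was at 55.1 and 57.4 RPKM in wt and at 2.2 in dF4, Fads3 at 28.5 and 29.1 in wt and at 1.8 in dF4, and Scd1 at 0.9 and 0.6 in wt and at 37 in dF4.

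Enzymes and receptors of lipid mediators were higher for 5 of 11 genes and lower for none. Of the 6 considered 4 were higher, and these 4 were considered only through dF4. All 4 were below 1 RPKM in wt replicate 1, so none of them could be lower by the size. The arachidonate lipoxygenases Alox15 (0.2 and 1.7 RPKM in wt, 85.6 in dF4) and Alox5 (0.5 and 1.9 in wt, 52.4 in dF4) were among them. Alox5ap, the partner of Alox5, was at 232.8 and 282.2 RPKM in wt and at 224.7 in dF4, so the enzyme and its partner were unequal. Formyl peptide receptor and complement genes were higher for 8 of 12 and lower for none, with C3 at 3.5 and 6.5 RPKM in wt and at 162.6 in dF4 and the chemotactic receptor Fpr2 at 0.4 in both wt libraries and 31 in dF4. All 7 considered were higher, but 6 of these, all except C3, were considered only through dF4. Being below 1 RPKM in wt replicate 1, those 6 could not be lower by the size. Granzymes ran both ways, with 2 of 10 higher and 1 lower, but both higher ones were considered only through dF4. Gzmm was at 4.3 and 1.8 RPKM in wt and at 52 in dF4, and Gzmk at 5.3 and 2.4 in wt and at 34.1 in dF4, against the lower Gzma. The Ly49 receptors of NK cells were lower for 10 of 21 genes and higher for 3, and their reads are uncertain among close copies. Of the 13 considered 9 were lower and 1 higher, Klra22, which was considered only through dF4. Klra17 was at 51.2 and 41.7 RPKM in wt and at 1.4 in dF4, and Klra22 at 5.3 and 2.9 in wt and at 12.2 in dF4. Among 362 solute carriers 43 were higher and 29 lower, while of the 128 considered 17 were higher and 21 lower. The choline transporter-like Slc44a2 was at 348.7 and 438 RPKM in wt and at 90.2 in dF4.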
